A study of Mus musculus with 8 samples.

Results

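DNA methylation was examined at 8 genes of glucose production and insulin response in mouse liver. They were Pck1, Fbp1, G6pc and Pcx, which encode gluconeogenic enzymes, Pygl, which encodes liver glycogen phosphorylase, and Foxo1, Ppargc1a and Irs1, which act in the response to insulin and fasting. Each gene was taken as its RefSeq span in build mm10 with 5 kb added on each side, called its extended span here, and every listed CpG cytosine inside was used. The 8 members are among 14811 protein-coding genes that lie within the table, and they hold 20838 of its 30729668 listed positions.

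The liver DNA came from male C57BL/6J mice bought at 8 weeks of age. Of the 8 libraries, 4 are titled NASH, for nonalcoholic steatohepatitis, and 4 are titled WT, whose columns the table heads ND for normal diet; the name ND is used below. The study fed mice for 28 weeks on either a normal diet or a diet rich in fat, cholesterol and fructose, and no genotype other than wild type is given. The treatment field of the labels runs opposite to the titles and to the column heads, so if that field were right every direction below would reverse. Nothing in the labels ties a library to one mouse, so the p-values measure the spread between these libraries, which may be technical. The comparison asks how methylation of these genes differs between the diets.

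In the fasting liver, glucose is made anew from lactate, glycerol and amino acids and is also released from glycogen. Pyruvate carboxylase (Pcx) turns pyruvate into oxaloacetate, cytosolic phosphoenolpyruvate carboxykinase (Pck1) turns oxaloacetate into phosphoenolpyruvate, fructose-1,6-bisphosphatase (Fbp1) removes a phosphate further along, and glucose-6-phosphatase (G6pc) frees the glucose. Glycogen phosphorylase (Pygl) splits glucose units from glycogen. Glucagon, through cyclic AMP, and the transcription factor FoxO1 with its coactivator PGC-1α (Ppargc1a) switch on Pck1 and G6pc. Insulin acts through its receptor substrate Irs1 and the kinase Akt, which keeps FoxO1 out of the nucleus. Methylation of CpG cytosines is low at active CpG-rich promoters and high over most of the genome.

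The starts of these genes differ in how many CpGs they hold. The 250 bases before each listed start, from RefSeq (GRCm38.p6), are shown for the CpG-poor starts of Pck1, G6pc and Ppargc1a and for a second, internal start of Pcx, with the CpG-rich starts of Pygl and Foxo1 for contrast. These were picked after their values were seen. Each runs 5′ to 3′ on the gene's strand, with every CpG in capitals.
Pck1 (chr2:173152823-173153072, + strand): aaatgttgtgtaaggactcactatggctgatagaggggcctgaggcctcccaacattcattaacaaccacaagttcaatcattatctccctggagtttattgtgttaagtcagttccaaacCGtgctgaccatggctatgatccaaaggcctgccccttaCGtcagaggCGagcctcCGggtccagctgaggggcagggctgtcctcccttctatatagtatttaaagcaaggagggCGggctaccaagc
G6pc (chr11:101367466-101367715, + strand): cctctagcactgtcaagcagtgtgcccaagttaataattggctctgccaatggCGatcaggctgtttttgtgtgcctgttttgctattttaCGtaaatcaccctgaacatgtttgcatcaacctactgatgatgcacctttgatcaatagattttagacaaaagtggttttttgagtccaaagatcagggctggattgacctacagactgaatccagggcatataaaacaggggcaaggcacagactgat
Ppargc1a (chr5:51567726-51567975, - strand): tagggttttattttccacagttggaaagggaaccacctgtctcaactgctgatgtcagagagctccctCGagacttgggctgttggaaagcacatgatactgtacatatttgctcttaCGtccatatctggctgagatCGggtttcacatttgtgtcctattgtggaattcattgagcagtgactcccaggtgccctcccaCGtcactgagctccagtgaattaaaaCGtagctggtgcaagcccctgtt
Pcx second start (chr19:4594069-4594318, + strand): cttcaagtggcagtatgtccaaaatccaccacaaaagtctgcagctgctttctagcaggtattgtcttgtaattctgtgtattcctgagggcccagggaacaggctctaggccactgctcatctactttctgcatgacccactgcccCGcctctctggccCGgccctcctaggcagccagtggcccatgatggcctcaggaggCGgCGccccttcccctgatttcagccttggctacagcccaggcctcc
Pygl (chr12:70227684-70227933, - strand): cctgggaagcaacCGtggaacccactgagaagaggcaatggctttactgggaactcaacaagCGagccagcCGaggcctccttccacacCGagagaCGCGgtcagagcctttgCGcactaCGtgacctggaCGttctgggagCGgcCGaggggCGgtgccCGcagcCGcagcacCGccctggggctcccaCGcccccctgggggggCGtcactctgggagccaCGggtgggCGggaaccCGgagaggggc
Foxo1 (chr3:52268087-52268336, + strand): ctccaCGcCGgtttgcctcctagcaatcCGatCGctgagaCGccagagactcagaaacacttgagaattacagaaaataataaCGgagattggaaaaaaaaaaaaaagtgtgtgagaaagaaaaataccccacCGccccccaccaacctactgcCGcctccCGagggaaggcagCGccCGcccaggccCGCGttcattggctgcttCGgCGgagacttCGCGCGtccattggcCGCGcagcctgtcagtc
The Pck1 stretch holds 5 CpGs, that of G6pc 2, that of Ppargc1a 5 and the internal Pcx start 4, against 20 each before Pygl and Foxo1. Fbp1 also has 5, the first start of Pcx 16 and Irs1 28. Levels at these starts are given gene by gene.

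A few short motifs were looked for on both strands of the 300 bases from 250 before to 50 after each start. These were the cAMP response element TGACGTCA, its parts TGACG and ACGTCA, the variant TTACGTAA, the forkhead site GTAAACA, the insulin response sequence CAAAACA, the TATA box TATAAA and the E-box CACGTG. The variant was added after the sequences were seen, and every ACGTCA also holds TGACG on the other strand. Pck1 has ACGTCA 91 bases before its start, with a CpG at -90 inside it, and the promoter start of Ppargc1a has ACGTCA at -50 with a CpG at -49. G6pc has TTACGTAA at -162 with a CpG at -159, CAAAACA at -174 and TATAAA at -29. Among the CpG-rich starts, Pygl has TGACG at -44 and the first start of Pcx has CACGTG at -248. Irs1 has TGACG at -118, CACGTG at -115 and CAAAACA at -111 and -32. Of 32851 RefSeq promoters of this length, 7.51% hold ACGTCA, 20.8% TGACG, 0.119% TTACGTAA, 6.28% CAAAACA, 13.6% TATAAA and 7.15% CACGTG. TGACGTCA (1.79% of promoters) and GTAAACA (3.65%) were not found in these windows. A match is a match of letters only.

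The genome-wide mean level was 71.0% to 72.3% in NASH and 71.1% to 72.3% in ND libraries. NASH replicate 3 (72.3%) and ND replicate 2 (71.1%) each stood apart from the other libraries of their group and beside those of the other diet. Of the members' spans, 6 were called without the first, Ppargc1a (lower) being added, and 5 without the second, against 5 with all libraries. No read counts accompany the levels and the sequencing depth per site is unknown. An exact 0 may be a true 0 or a site with few reads. Over all 14717 extended spans with enough positions, the median difference (NASH minus ND) was -0.28 percentage points and 39.7% of spans were higher in NASH. The call used throughout is an adjusted p under 0.05 from limma's moderated test, with Benjamini-Hochberg adjustment over all regions of that kind in the genome.

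Of the 8 extended spans, 5 were more methylated in NASH than in ND: Pck1, Fbp1, Pygl, Foxo1 and Irs1. None was called lower, and Pcx, G6pc and Ppargc1a did not pass. With every site listed at 0 left out, Pck1 alone of the 8 was called. Across the genome 9.28% of spans were called in either direction and 5.99% were called higher and 3.3% lower, 881 and 485 spans. With each library centred on its own genome-wide mean the genome gave 1175 higher and 305 lower, and with NASH replicate 3 left out 727 higher and 733 lower. With every zero left out the balance turned, at 153 higher and 478 lower. In 6 members, the called ones and G6pc, every NASH library lay above every ND library, which 9.48% of all spans also did, and the reverse held for none of the 8 and 8.15% of all spans. Changed methylation per cell and a changed mix of cells cannot be told apart in bulk liver.

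**Figure D1:**
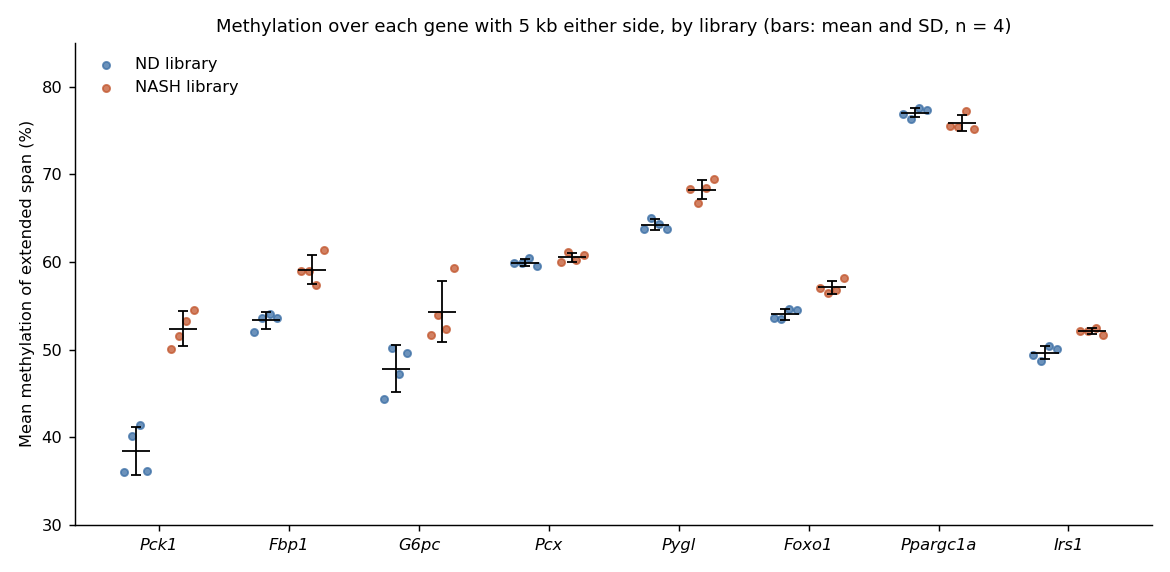
Mean methylation in percent over each gene with 5 kb either side, one point per library, ND (blue) and NASH (orange), with the mean and SD of 4 libraries. The groups lie apart in Pck1, Fbp1, G6pc, Pygl, Foxo1 and Irs1 and overlap in Pcx and Ppargc1a.

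Pck1 (chr2:173153073-173159274, + strand) showed the largest difference of the 8, and its span stood at rank 5 of 14717 when spans were ordered from the highest difference down. Its 532 positions averaged 50.1, 51.6, 53.3 and 54.6% in the NASH libraries and 36.1, 40.2, 41.4 and 36.1% in the ND libraries. Every NASH value was above every ND value. The difference was 13.95 points (SE 1.45, adjusted p = 0.00179). An overlapping noncoding gene, Gm36691, shares these positions.

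The difference at Pck1 ran through the gene rather than sitting at one end. The gene body was at 50.5% ± 3.93 in NASH and 33.8% ± 4.86 in ND (SD, n = 4), a difference of 16.7 points (adjusted p = 0.0139). The 5 kb before the gene differed by 10.1 points (adjusted p = 0.0388) and the 5 kb after it by 12.3 points (adjusted p = 0.0278). Both flanks depended on single libraries: the upstream flank passed only without NASH replicate 1 and had adjusted p-values up to 0.101 in the other 7 cases. The downstream flank lost its call without NASH replicate 1, 2 or 4 or ND replicate 1 or 2, with values up to 0.0758. Within the gene, 4 neighbouring windows of 1000 bases centred 2428 to 5428 bases past the start lay at 28.6 to 41.1% in ND and 49.0 to 58.0% in NASH, and the groups were apart in each.

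The window with the largest difference in Pck1, at chr2:173158001-173159000 near the end of the gene, was at 56.1, 54.9, 54.98 and 45.8% in NASH and 23.1, 36.3, 36.0 and 27.0% in ND. No library of one group reached the other group there. Its difference of 22.4 points had an adjusted p of 0.115. Just past the gene, chr2:173160001-173161000 was at 48.7% ± 4.08 in NASH and 26.5% ± 3.24 in ND (SD, n = 4; adjusted p = 0.0748).

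At the promoter of Pck1, 13 positions from -250 to +50 averaged 16.5, 34.9, 43.4 and 52.7% in NASH and 15.4, 27.1, 18.3 and 25.3% in ND. The NASH libraries were widely spread and the lowest of them fell among the ND values. The difference of 15.3 points (SE 7.43) had an adjusted p of 0.761. The CpG inside the ACGTCA motif averaged 29.9% in NASH and 16.5% in ND, and the one at -13 averaged 46.5% and 27.5%. The 1000 bases just upstream (chr2:173152001-173153000) were more evenly apart, at 39.6, 40.9, 55.4 and 50.9% in NASH and 28.1, 30.8, 22.6 and 28.2% in ND (adjusted p = 0.142).

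Fbp1 (chr13:62864753-62888298, - strand) had the second largest called difference. Its 762 positions averaged 58.9, 58.9, 57.4 and 61.3% in NASH and 52.0, 53.6, 54.1 and 53.7% in ND. The groups did not overlap, and the difference was 5.81 points (SE 0.855, adjusted p = 0.00546). The call rested on the gene body, at 54.7% ± 1.37 against 47.6% ± 1.498 (SD, n = 4; 7.10 points, adjusted p = 0.00674). The upstream flank differed by 4.71 points (adjusted p = 0.280) and the downstream flank by 0.794 points (adjusted p = 0.883). The noncoding gene Gm38679 overlaps the span.

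The start of Fbp1 was low in both diets, and the difference opened a short way to each side. The promoter averaged 7.26% ± 6.73 in NASH and 7.32% ± 2.52 in ND (SD, n = 4). The window centred 1781 bases inside the gene (chr13:62886001-62887000) was at 35.0% in NASH and 21.5% in ND, and the one centred at -1219, outside the gene (chr13:62889001-62890000) at 41.0% and 23.1%. The largest window difference, 20.3 points, was centred 15781 bases inside the start (chr13:62872001-62873000), with NASH libraries from 57.3 to 70.1% and ND libraries from 28.7 to 51.2% (adjusted p = 0.215). When each gene end was widened to 2000 bases either way, the start of Fbp1 passed at 7.002 points (adjusted p = 0.00769), against 3.19 points (adjusted p = 0.394) in the narrower region.

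G6pc (chr11:101367716-101377903, + strand) differed in both 5 kb flanks, while its body mean did not differ detectably. Over its whole extended span, 398 positions averaged 51.7, 53.9, 52.3 and 59.3% in NASH and 44.3, 50.2, 47.2 and 49.6% in ND. The groups were apart, and the difference of 6.46 points (SE 1.87) had an adjusted p of 0.0685. With 10 kb on each side it was 5.13 points (adjusted p = 0.0456).

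The 5 kb before G6pc averaged 42.6, 51.3, 44.0 and 50.8% in NASH and 22.8, 34.2, 27.7 and 32.6% in ND. Every NASH library was higher, and the difference of 17.9 points was the largest among the members' flanks and bodies (adjusted p = 0.0238). The 5 kb after the gene differed by 9.91 points (adjusted p = 0.0236). The gene body averaged 56.6% ± 4.69 in NASH and 55.2% ± 2.15 in ND (SD, n = 4; adjusted p = 0.774), where NASH replicate 4 at 63.6% stood well above the other 3. Without that library the difference in the body was -0.95 points. Leaving out NASH replicate 4 or ND replicate 1, 3 or 4 took the upstream flank to adjusted p-values of 0.0507 to 0.0710, and NASH replicate 2, 3 or 4 or ND replicate 4 took the downstream flank to 0.0510 to 0.0701.

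The window over the start of G6pc (chr11:101367001-101368000) was the closest of all 1014 member windows to passing. It was at 40.01, 38.0, 39.4 and 45.4% in NASH and 21.2, 20.7, 19.4 and 19.7% in ND, with the groups far apart and the ND libraries within 2 points of each other. The difference was 20.5 points (SE 1.80, adjusted p = 0.0593), and it passed with centred libraries (adjusted p = 0.0495) or with only windows of at least 20 positions (adjusted p = 0.0437). The next window into the gene was at 40.4% and 18.4%, and the windows centred at -3215 and -4215 upstream at 35.6% and 14.4% and at 45.9% and 24.3%. The windows centred 785 to 2785 bases past the start had higher means in NASH, by 10.9 to 22.0 points. All those centred 3785 to 9785 bases past it went the other way, with differences from -19.1 to -1.15 points. Among these only the window at 6785 (chr11:101374001-101375000) had no overlap, at 37.7% in NASH and 56.8% in ND (adjusted p = 0.237).

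The promoter of G6pc held 8 positions at 24.7, 38.5, 34.8 and 39.9% in NASH and 20.8, 23.9, 15.2 and 19.0% in ND. All NASH libraries were higher, though the lowest came within a point of the highest ND library. The difference was 14.7 points (SE 4.18, unadjusted p = 0.00721, adjusted p = 0.465). The CpG within TTACGTAA averaged 43.0% in NASH and 27.9% in ND, and the other upstream CpG, at -197, averaged 41.7% and 27.0%.

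Pcx (chr19:4510472-4621752, + strand) did not differ detectably over its span. The 2662 positions averaged 60.0 to 61.1% in NASH and 59.5 to 60.4% in ND, the groups overlapped, and the difference was 0.586 points (SE 0.435, adjusted p = 0.450). The span also covers Lrfn4, Rce1, Gm960 and Mir6986. The extended span, with a body of 111281 bases, held local differences that the mean did not show. Of its 111 windows, 13 (11.7%) had every NASH library above every ND library, where 2.78% of all windows did. In 2 (1.80%) the reverse held, where it did in 3.71% of all windows. The largest, centred 36029 bases past the start (chr19:4546001-4547000), was at 51.9, 64.2, 57.5 and 66.3% in NASH and 37.7, 30.9, 35.5 and 33.3% in ND. The groups were well apart, by 25.6 points (SE 3.56, adjusted p = 0.0927).

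Pcx has 2 listed starts of different kinds. The first, with 16 CpGs upstream, was nearly unmethylated, at 0.208% ± 0.417 in NASH and 0.646% ± 0.605 in ND (SD, n = 4). The second, inside the gene at position 4594319, was at 26.7, 35.4, 7.62 and 51.3% in NASH and 7.86, 13.2, 29.8 and 0% in ND. The libraries of each group spread widely and the groups overlapped, so the 17.5-point difference (SE 9.68) had an adjusted p of 0.761. ND replicate 4 was listed at exactly 0 at every CpG of this second start, and such zeros may be sites with few reads. Leaving out 1 library gave differences from 10.5 to 25.1 points there.

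**Figure D2:**
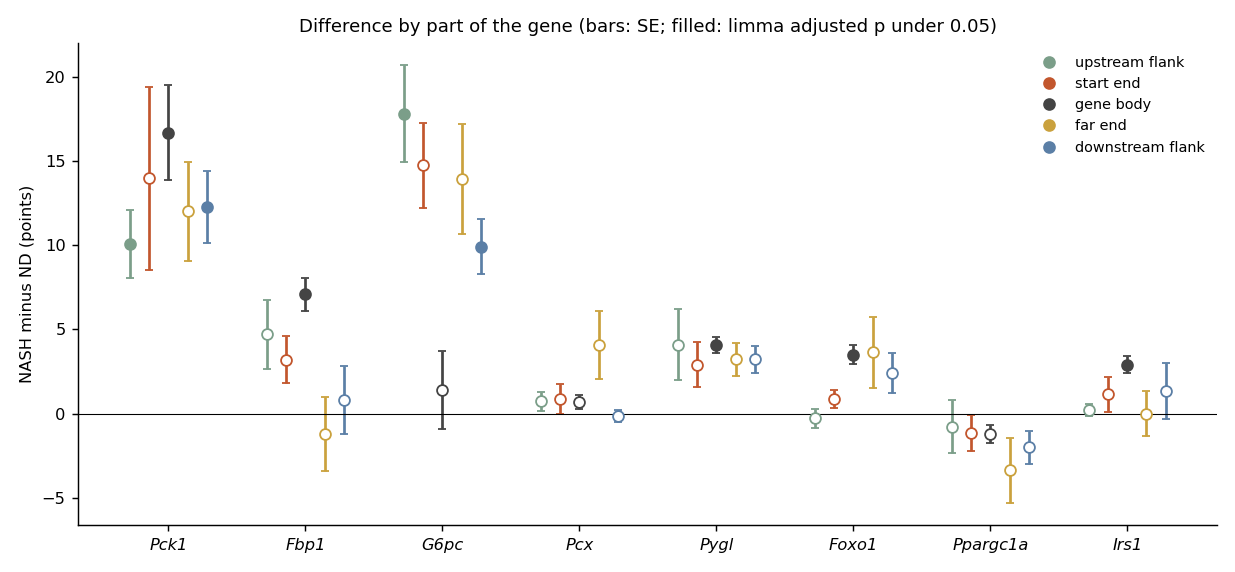
NASH minus ND in percentage points for the 5 kb upstream, the start, the body, the far end and the 5 kb downstream of each gene, with the limma standard error; filled points have an adjusted p under 0.05. The filled points are the bodies of Pck1, Fbp1, Pygl, Foxo1 and Irs1 and both flanks of Pck1 and G6pc, all above 0. For Ppargc1a the start and upstream points are those of the far upstream end of its span, not of its listed start.

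Pygl (chr12:70190815-70227683, - strand), the glycogen-releasing enzyme of the set, was called higher. Its 1264 positions averaged 68.3, 66.8, 68.4 and 69.4% in NASH and 63.8, 65.1, 64.3 and 63.7% in ND. The lowest NASH library was above the highest ND library, and the difference was 3.99 points (SE 0.607, adjusted p = 0.00640). The body was called too, at 70.2% ± 0.861 against 66.2% ± 0.367 (SD, n = 4; 4.06 points, adjusted p = 0.0046). The flanks differed by similar amounts without passing, 4.08 points upstream (adjusted p = 0.369, groups overlapping) and 3.23 points downstream (adjusted p = 0.0795, groups apart). Abhd12b and the noncoding F730035M05Rik and Gm38467 overlap the span.

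The start of Pygl was nearly unmethylated in both diets, and the group means of the windows just next to it were higher in NASH on each side. The promoter was at 0.426% ± 0.284 in NASH and 0.568% ± 1.14 in ND (SD, n = 4), and the window over the start (chr12:70227001-70228000) at 2.15% and 2.65%. The next 4 windows into the gene (chr12:70223001-70227000) were at 16.6 to 29.1% in ND and 36.2 to 44.3% in NASH, and the groups were apart in each. The first of these, chr12:70226001-70227000, was at 39.99, 36.6, 32.5 and 35.7% in NASH and 10.2, 21.5, 12.5 and 22.3% in ND. The lowest NASH library stood above the highest ND library, by 19.5 points between the means (SE 3.02, adjusted p = 0.103). Outside the start the first window (chr12:70228001-70229000) was at 45.8% in NASH and 31.8% in ND with overlapping groups (adjusted p = 0.434), and the 4 further upstream differed in both directions, from -9.04 to 10.2 points, all with overlap.

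**Figure D3:**
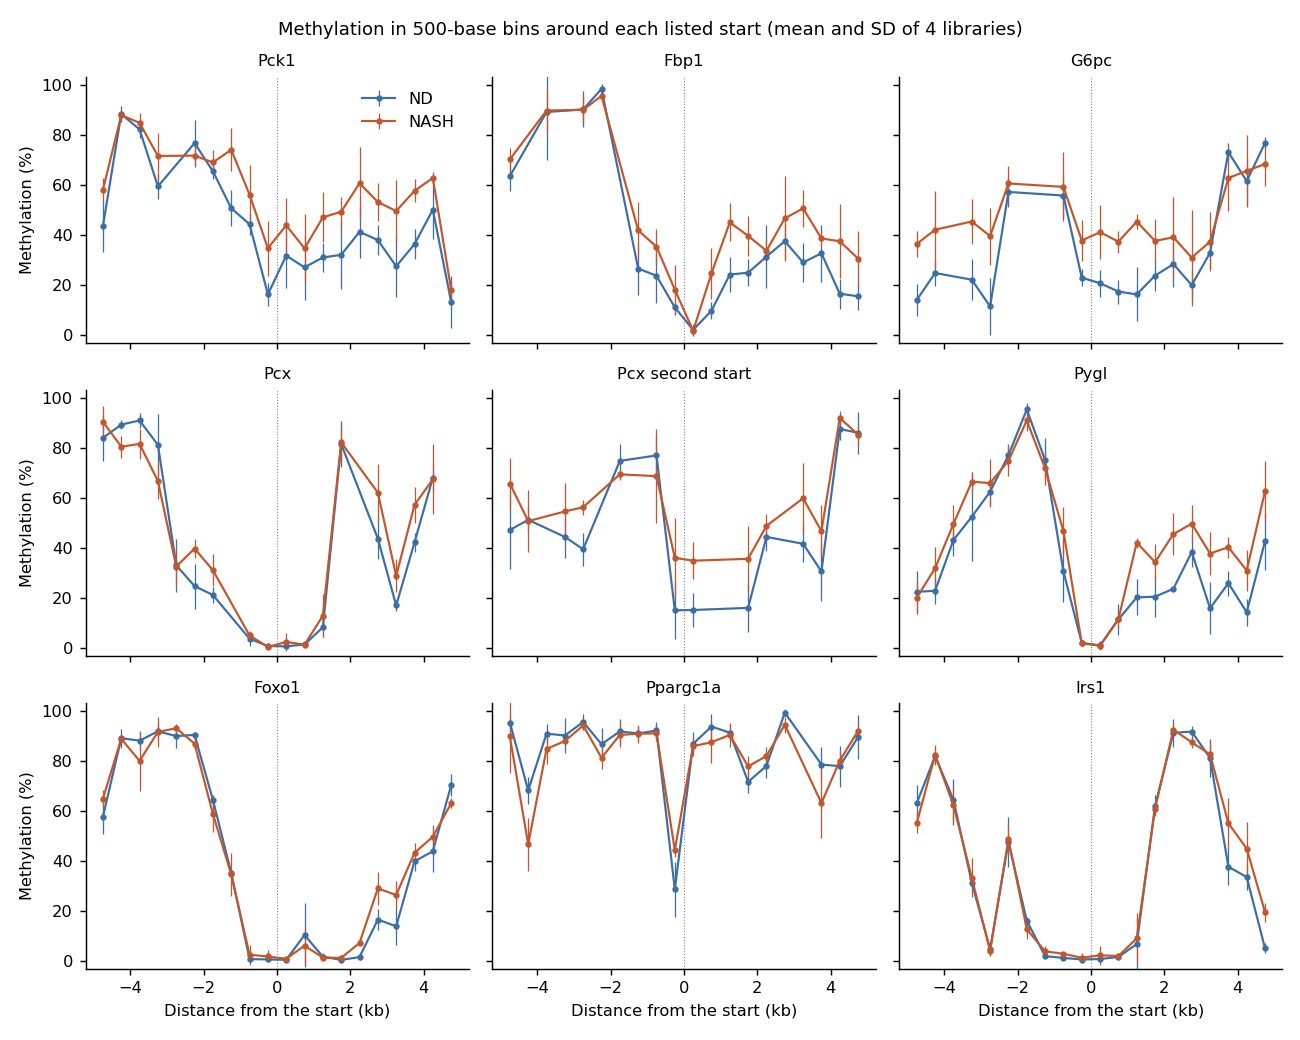
Methylation in percent in bins of 500 bases from 5 kb before to 5 kb after each listed start, as mean and SD of 4 ND (blue) and 4 NASH (orange) libraries. Pck1, G6pc and the second start of Pcx dip only partly at the start, with NASH above ND there, while the starts of Fbp1, Pygl, Foxo1, Irs1 and the first start of Pcx fall to a few percent or less in both groups.

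Foxo1 (chr3:52268337-52350109, + strand), the transcription factor held back by insulin, was called higher over its span. Its 2482 positions averaged 57.0, 56.5, 56.8 and 58.1% in NASH and 53.5, 53.5, 54.7 and 54.5% in ND. The groups were apart by a small margin against a small spread, and the difference was 3.05 points (SE 0.527, adjusted p = 0.0104). The body differed by 3.50 points (adjusted p = 0.0125), the upstream flank by -0.29 and the downstream flank by 2.43 points, neither flank called.

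Windows with separated groups were scattered along Foxo1. Of the 92 windows of its extended span, 19 (20.7%) had every NASH library above every ND library, where 2.78% of all windows did. None had the reverse, where 3.71% of all windows did. The window with the largest difference, centred 25164 bases past the start (chr3:52293001-52294000), was at 32.7, 46.5, 35.2 and 50.7% in NASH and 22.1, 21.5, 17.1 and 20.5% in ND. The NASH libraries were spread and all higher, by 21.0 points (SE 3.90, adjusted p = 0.131). The promoter, with 62 positions, was at 0.921% ± 0.317 and 0.450% ± 0.212 (SD, n = 4; adjusted p = 0.761).

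Irs1 (chr1:82233105-82291439, - strand), the adaptor that carries the insulin signal from its receptor, was also called higher. Its 1602 positions averaged 52.1, 52.2, 52.5 and 51.7% in NASH and 49.4, 48.7, 50.4 and 50.1% in ND. All 4 NASH libraries were above all ND libraries, by 2.47 points (SE 0.485, adjusted p = 0.0171). Without ND replicate 1 the span had 2.39 points with an adjusted p of 0.0574, and the body 2.74 points with an adjusted p of 0.0560. Neither flank passed.

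In Irs1 the difference was most marked over 4 windows centred 3938 to 6938 bases inside the start (chr1:82284001-82288000), at 10.6 to 38.9% in ND and 26.0 to 52.9% in NASH. The window at chr1:82286001-82287000 was at 26.1, 28.8, 24.0 and 25.2% in NASH and 6.84, 11.7, 9.503 and 14.5% in ND. The groups were clearly apart, by 15.35 points (SE 1.72, adjusted p = 0.0700), and passed among windows of at least 20 positions (adjusted p = 0.0498). Within the same run, chr1:82284001-82285000 had the largest difference in the gene, 24.5 points (SE 5.35, adjusted p = 0.167), with NASH libraries from 24.8 to 50.9% and ND libraries from 7.39 to 21.5%. A window 23938 bases in (chr1:82267001-82268000) was lower, at 65.2% in NASH and 77.84% in ND. The promoter was at 1.91% ± 3.59 and 0.781% ± 1.08 (SD, n = 4).

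Ppargc1a (chr5:51454249-52115853, - strand), which encodes the coactivator PGC-1α, was the one member whose span was lower in NASH, without passing the test. Its RefSeq span is 661605 bases long, reaching far upstream of the listed start, and its 11136 positions averaged 75.5, 75.4, 77.2 and 75.2% in NASH and 76.9, 76.3, 77.5 and 77.3% in ND. The groups overlapped through NASH replicate 3. The difference was -1.20 points (SE 0.534, adjusted p = 0.207), and without that library it was -1.66 points and passed (adjusted p = 0.0425). Of its 628 windows, 33 (5.25%) had every NASH library below every ND library, where 3.71% of all windows did, and 8 (1.27%) the reverse, where 2.78% did.

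The promoter of Ppargc1a whose sequence is shown lies inside that long span, and there the direction was the opposite of the gene's. Its 10 positions averaged 35.3, 40.7, 35.25 and 30.6% in NASH and 28.1, 20.2, 23.0 and 5.83% in ND. All 4 NASH libraries were higher, by 16.2 points (SE 5.11, unadjusted p = 0.0125, adjusted p = 0.581). ND replicate 4 was listed at exactly 0 at every CpG but the one at -112, and such zeros may be sites with few reads. Leaving out 1 library gave differences from 11.7 to 19.1 points. The CpG within ACGTCA averaged 37.6% in NASH and 21.1% in ND, and the one at -23 averaged 45.2% and 19.6%. The stretch is a narrow dip in highly methylated sequence, and the 1000-base window over it averaged 60.7% and 53.7%. The far upstream end of the span was at 1.77% ± 0.352 and 2.95% ± 2.41 (SD, n = 4) within its end region (1000 bases outside to 500 inside). The largest difference among all windows of Ppargc1a, -22.2 points at chr5:51973001-51974000, had overlapping groups (41.1% in NASH, 63.3% in ND; adjusted p = 0.324). Among those with separated groups, chr5:51511001-51512000 was higher by 18.3 points, at 52.4% and 34.1% (adjusted p = 0.111).

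**Figure D4:**
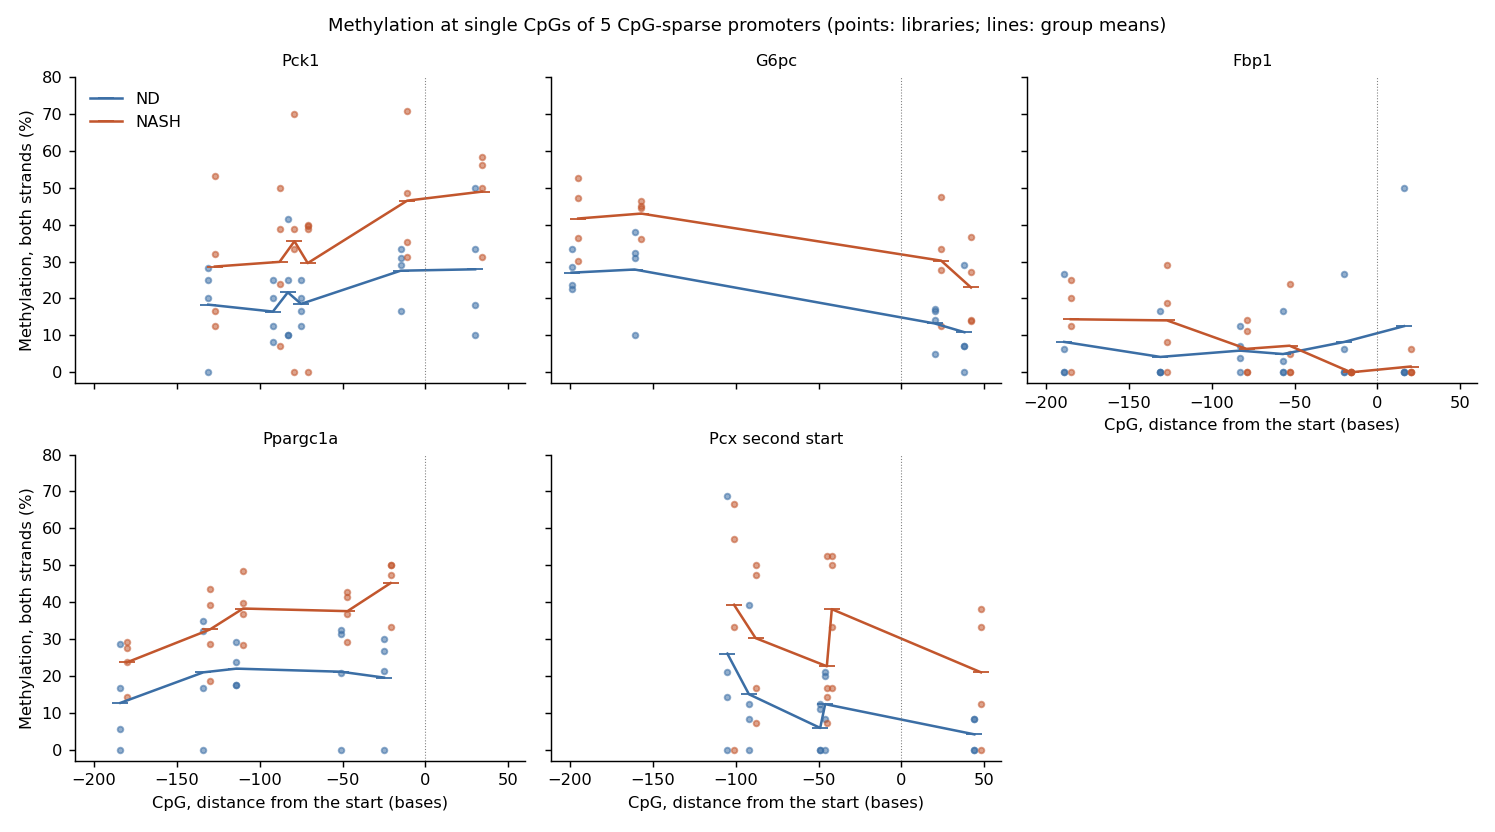
Methylation of single CpGs, both strands averaged, against distance from the start for 5 CpG-poor starts; points are libraries, lines join group means, and ND (blue) and NASH (orange) are drawn 2 bases apart on each side of the true position. NASH means lie above ND means at every CpG of Pck1, G6pc, Ppargc1a and the second start of Pcx, which were picked for display after their values were seen. At Fbp1 the CpGs at -18 and 18 run the other way, and single libraries overlap at many CpGs.

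Set side by side, the parts of the genes gave 5 of 8 bodies called, against 8.3% of all bodies (5.54% called higher), and 2 of 8 flanks on each side, against 2.74% of low-coordinate (1.94% higher) and 2.86% of high-coordinate flanks (2.15% higher). All 9 were higher in NASH. Without NASH replicate 4 or without ND replicate 1 the count of 9 became 5, and with every zero left out it became 1. None of the 16 gene ends, taken as 1000 bases outside to 500 bases inside, passed limma's test, where 0.0103% of all ends did. That fit holds ends that do not vary within groups, which shape its mean-dependent prior and so the adjusted p-values of ends: without them 89 ends passed genome-wide and with no such prior 145, though still 0 of the 16. At an unadjusted p under 0.05, 5 of the 16 were higher and none lower, where 13% of all ends were in either direction, and 4 had separated groups (4.25% of all ends). These 4 were the start of G6pc (44.8% against 30.002%, adjusted p = 0.0739), its far end (55.4% against 41.5%, adjusted p = 0.128), and the far ends of Pck1 (28.1% against 16.04%, adjusted p = 0.141) and Pygl (93.5% against 90.3%, adjusted p = 0.206). With ends of 2000 bases either way, 3 passed, where 1.64% of all ends were called higher: the starts of G6pc (16.9 points) and Fbp1 and the far end of Pck1 (16.6 points). Of the 9 promoters of 300 bases, 0 passed, as did 0% of 12010 promoters genome-wide. At an unadjusted p under 0.05 there were 2, G6pc and Ppargc1a, where 6.8% of all promoters were. They were also the 2 with separated groups, higher in NASH as in 2.01% of all promoters.

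Windows of 1000 bases were then grouped by their mean level. No member window passed limma's test, with 4 of 1609837 windows (0.000248%) passing genome-wide, while 128 member windows were higher and 72 lower at an unadjusted p under 0.05, where 4.33% and 6.58% of all windows were. Groups were separated with NASH higher in 78 of 1014 member windows (7.69%), where 2.78% of all windows were, and with NASH lower in 37 (3.65%), where 3.71% were. Without Ppargc1a the counts were 70 higher and 4 lower of 386. In windows of intermediate level, 20 to 70% over the 8 libraries, 58 of 215 member windows were separated and higher and 3 lower, with a median difference of 7.88 points. Genome-wide, windows of that class also leaned upward, with 7.81% separated and higher, 2.94% separated and lower, and a median of 0.550 points. In windows of 70% or more the members' median was -1.16 points and that of all windows -0.85. Ppargc1a alone had a median of -1.57 points in that class. The 7 members without Ppargc1a had 0.226 points, with 15 of their 213 windows separated and higher and 3 lower. Genome-wide, 1.56% of windows in that class were separated and higher and 3.99% separated and lower. Ppargc1a, with 559 of its 628 windows in the highest class, had the lowest share of intermediate windows, 9.87%, and Pck1 with 13 of 16 and G6pc with 18 of 21 the highest.

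**Figure D5:**
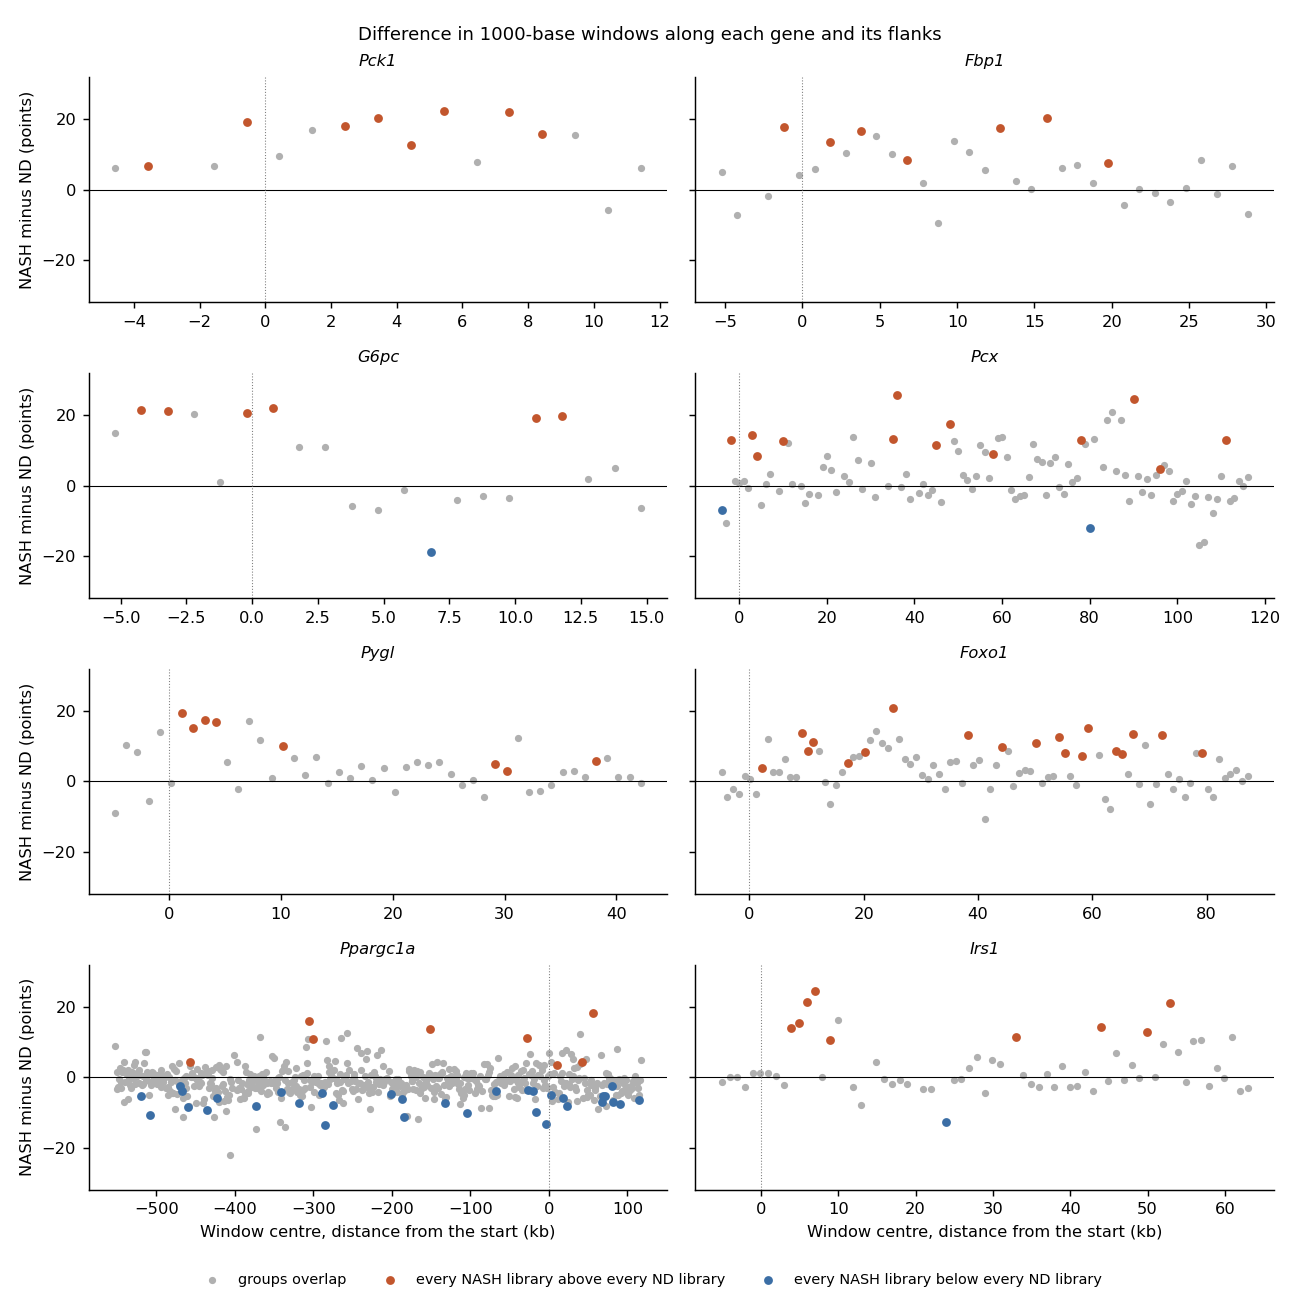
NASH minus ND in percentage points for each window of 1000 bases, against the distance of its centre from the listed start. Orange points have every NASH library above every ND library, blue points the reverse, grey points overlap; most points are grey outside Pck1, and orange points outnumber blue ones in all panels except Ppargc1a, where 33 points are blue and 8 orange.

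Part of the difference was carried by sites listed at exactly 0. In Pck1, 12.1% of values were 0 in NASH and 24.0% in ND, in G6pc 7.22% and 15.9%, in Fbp1 13.2% and 17.6%, and in Irs1 28.7% and 32.9%. Zeros were left out library by library, so each library was then averaged over its own set of sites. In these genes that removes more values from ND, true zeros included, and can narrow a difference by itself. A lost call therefore does not tell true zeros from sites with few reads. With every zero left out, the Pck1 span remained called at 9.05 points (adjusted p = 0.0223), Fbp1 had 3.38 points (adjusted p = 0.104), Pygl 2.02 (adjusted p = 0.187), Foxo1 1.10 (adjusted p = 0.511), Irs1 -0.99 (adjusted p = 0.546) and G6pc 1.63 (adjusted p = 0.563). Of the called flanks, the Pck1 upstream flank then had 3.40 points (adjusted p = 0.401), the Pck1 downstream flank 9.55 (adjusted p = 0.0624), the G6pc downstream flank 5.01 (adjusted p = 0.330) and the G6pc upstream flank 10.4 (adjusted p = 0.0499). With only doubtful zeros left out, those amid highly methylated neighbours, all 5 spans kept their call. The Pck1 upstream flank lost its call there, at 8.69 points (adjusted p = 0.0559).

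Other genes of the same pathways were taken from lists drawn up by function. These lists and those of cell type markers were chosen with earlier results of these data known. Their counts are therefore not independent of the members' results. Beside the counts of each list, 5.99% of all spans were called higher and 3.3% lower. Of 10 further gluconeogenesis genes tested, 4 spans were called higher and none lower, with a median difference of 1.76 points. These were Mpc2, a subunit of the mitochondrial pyruvate carrier (3.52 points), Got1, cytosolic aspartate aminotransferase (3.05), Gpt, alanine aminotransferase (2.90), and Mdh1, cytosolic malate dehydrogenase (2.39). Pck2, the mitochondrial isoform of the Pck1 enzyme, was at 75.9% in NASH and 76.2% in ND, and G6pc3, a relative of G6pc, at 47.1% in both, neither called.

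Of 12 glycogen genes, 3 were called higher and none lower, with a median of 0.879 points. Ppp1r3c, a subunit that targets a phosphatase to glycogen, had 52.2% in NASH and 45.5% in ND, a difference of 6.76 points (SE 0.711, adjusted p = 0.00179). Pgm1, phosphoglucomutase, differed by 3.34 points (SE 0.439, adjusted p = 0.00346), at 71.9% in NASH and 68.6% in ND.

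Of 25 insulin and glucagon signalling genes, 7 were called higher and none lower, with a median of 1.33 points. The largest was Gcgr, the glucagon receptor, at 42.4% in NASH and 35.2% in ND, a difference of 7.25 points (SE 0.670, adjusted p = 0.00131). Pik3r1, the regulatory subunit of phosphoinositide 3-kinase, differed by 3.74 points, Foxo3, a relative of Foxo1, by 3.67, and Grb10, an adaptor that binds the insulin receptor, by 3.04. The 3 lists gave 14 calls in all, against 8 without NASH replicate 4, 9 without ND replicate 1 and 2 with every zero left out. Beside these lists the members' own median was 3.52 points and that of all spans -0.28.

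Markers of liver cell types moved as well, and their counts stand beside 5.99% of all spans called higher and 3.3% lower. All 12 hepatocyte marker spans tested, among them Alb and Hnf4a, were called higher, with a median of 10.2 points and list means of 52.3 to 56.7% in NASH and 42.6 to 43.9% in ND libraries. Among neutrophil markers 4 of 8 were called lower (67.8 to 69.0% in NASH, 70.2 to 72.1% in ND), as was 1 of 8 macrophage markers, Mpeg1 (64.1 to 65.0%, 65.7 to 67.2%), and 2 of 7 cholangiocyte markers, Muc1 and Spp1 (56.8 to 58.4%, 58.1 to 58.9%). Single libraries decided the neutrophil and cholangiocyte calls. The neutrophil count was 0 without ND replicate 1 and 1 to 3 without any other. The cholangiocyte count was 0 without NASH replicate 1 or 4 or ND replicate 1 or 3 and 1 without any other. The macrophage count was 2 without ND replicate 2 and 1 without any other. The hepatocyte count was 12 without any single library and 8 with every zero left out. None was called among 5 lymphocyte (75.2 to 77.7%, 76.5 to 78.3%), 9 stellate cell (67.5 to 69.3%, 68.6 to 69.9%) and 7 endothelial markers (64.8 to 65.9%, 65.9 to 66.7%). Without NASH replicate 3, 1 lymphocyte, 3 stellate cell and 1 endothelial marker were called lower. With every zero left out these counts were 0, 1 and 1. The labelled tissue was checked against level at gene starts: the median over the start regions in ND was 27.8% for hepatocyte markers, 26.2% for cholangiocyte markers and 55.6 to 82.8% for the other lists. The part of a changed cell mix in the members' differences was not tested.

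For each member, the genes outside it whose span level followed it most closely over the 8 libraries were found by Pearson's r, given without a test. The points are the same 8 libraries in 2 groups, so a shared group difference alone gives a high r. The closest to Pck1 were Nudt4 (0.996), H6pd (0.989) and Nsun2 (0.989), and to Fbp1 Sfxn2 (0.993), C130074G19Rik (0.992) and Ebpl (0.990). G6pc was followed by Pi4ka (0.978) and Tgif1 (0.952), and Pcx by Mob4 (0.948), Ccm2l (0.946) and Traf6 (0.946). For Pygl they were Hs6st1 (0.991), Haao (0.989) and Slc22a23 (0.989), and for Foxo1 Tapt1 (0.997), Aldh9a1 (0.993) and Rcl1 (0.991). Ppargc1a was closest to Ssbp2 (0.992), Smyd3 (0.990) and Syt14 (0.990), and Irs1 to Fip1l1 (0.985), Eif3h (0.984) and Clic4 (0.980).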

How the data were processed

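Whole-genome bisulfite sequencing libraries of liver DNA (4 NASH, 4 ND) were used. The authors' deposited table gives percent methylation per CpG cytosine, each strand on its own row, for all 8 libraries and without read counts. FastQC and build mm10 are named per the submitters' processing notes, and which aligner and caller were run was not given in the sources used here. Columns were matched to samples by the group and replicate number in the titles, with ND columns taken as the samples titled WT.

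Listed positions stand 1 base past the CpG: after subtracting 1, all 576932 positions inside RefSeq promoter sequences fell on a CpG. The 15 placed chromosomes held here (chromosome 5 in part; the others not analysed here) gave 30729668 positions, and 326824 positions on 85 contigs and 1 incomplete line were left out.

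Levels were averaged per library over regions with at least 6 positions: extended spans, gene bodies, 5 kb flanks, gene ends, 1000-base windows and 300-base promoters. Each kind was fitted genome-wide with limma 3.58.1 (R 4.3.3). The test was moderated and two-sided, with prior variance following the mean, Benjamini-Hochberg adjustment and a call under 0.05. Only the fit of extended spans was checked on simulated data. The promoter test was added after the data were seen. Gene symbols, spans, strands and sequences are from RefSeq GRCm38.p6; exons and introns were not analysed here.

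Named items follow a rule: all members; in each member the window with the largest difference where none was called; per pathway list, at most 4 called genes with the largest differences; per member, up to 3 genes by likeness. A few items that the rule names are not reported here. Windows of smallest p, windows with separated groups, the starts shown and uncalled list genes were picked after their values were seen. The members and lists were chosen with earlier results of these data known. Alternatives were a replicate block, the logit scale, no mean-dependent prior, centred libraries, at least 20 positions, other region sizes, leaving out each library, doubtful zeros (a 0 whose 10 nearest positions have a median of 50% or more) or every zero, and, added after seeing the data, regions that do not vary within groups.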

Additional observations from a re-analysis of the deposited data

Results flagged for a closer look

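Each group of 4 libraries behind a member's value was checked for one library lying far from the other 3 relative to the group's range. Of 144 groups, 16 had such a library; chance gives about 1 in 20. The cause was tested for none of them.

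Among gene parts, NASH replicate 4 was high in the G6pc body (63.6%, the others 53.7 to 54.8%). NASH replicate 3 was high in the Ppargc1a body (78.0%, the others 76.1 to 76.4%) and extended span (77.2%, the others 75.2 to 75.5%). ND replicate 2 was high at the far upstream end of the Ppargc1a span (6.56%, the others 1.66 to 1.92%) and in its upstream flank (31.5%). ND replicate 4 was low at the far ends of Pygl (88.9%) and Irs1 (85.7%), and NASH replicate 2 was low in the downstream flank of Foxo1 (79.8%, the others 84.1 to 84.5%). The window chr2:173158001-173159000 of Pck1 had NASH replicate 4 low (45.8%).

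The others were nearly unmethylated starts. NASH replicate 1 was high at the first start of Pcx (4.75% in the end region, 0.833% in the promoter), and NASH replicate 2 at the start of Irs1 (5.47% and 7.29%). In the Pygl promoter NASH replicate 1 was at 0% with the others at 0.568%, and ND replicate 1 at 2.27% with the others at 0. In the Foxo1 promoter ND replicate 4 was at 0.134%.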

How the results depend on the processing

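Over all alternatives run, the 5 called member spans fell to 1 (Pck1) with every zero left out, and 4 to 6 were called when 1 library was left out. Member ends called went from 0 to 1 with centred libraries and 3 with ends of 2000 bases, and were 0 without any single library. Member windows went from 0 to 1 (centred), 3 (at least 20 positions), 2 (no zeros) and 1 (windows of 2000 bases). Bodies and flanks went from 9 to 1 without zeros and 5 to 8 without 1 library. All gene spans went from 1366 to 631 without zeros and 758 to 1460 without 1 library (lowest without ND replicate 1, NASH replicate 4, ND replicate 4 and ND replicate 3). All gene ends went from 3 to 12 (logit), 145 (no mean-dependent prior), 227 (centred), 5 (at least 20 positions), 89 (without regions that do not vary within groups), 14 (no doubtful zeros), 0 (no zeros) and 0 to 2 without 1 library. The 14 called pathway genes became 2 without zeros and 8 to 13 without 1 library. No member promoter was called under any alternative run.

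Same-numbered libraries did not deviate together (correlations -0.046, -7.73e-05, 0.130 and -0.0045 for numbers 1 to 4), so the numbers were not taken to pair them. With the replicate number as a block, 4 bodies and flanks, 842 gene spans, 0 gene ends and 8 pathway genes were called, with 2 neutrophil and 0 cholangiocyte markers. The G6pc span then had an adjusted p of 0.0342, the Irs1 span 0.0567 and body 0.0687, the Foxo1 body 0.0530, the Pck1 flanks 0.126 (upstream) and 0.0925, and the G6pc downstream flank 0.0573.

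Signs changed in the following, none called in the reported fit except the Irs1 span and body. Without zeros: spans of Pcx -0.78 and Irs1 -0.99, bodies of G6pc -1.65, Pcx -0.80 and Irs1 -0.70, upstream flanks of Pcx -0.33 and Irs1 -5.39. Centred: upstream flank of Foxo1 0.14, downstream flank of Pcx 0.26, far end of Irs1 0.42, promoters of Fbp1 0.36 and Pygl 0.28. Logit: far end of Irs1 0.0048, Pygl promoter 0.028. With 500-base ends: Pygl start -0.16, Foxo1 far end -0.61. With 2000-base ends: Foxo1 start -0.67, Foxo1 far end -0.10, Irs1 far end 1.63. Without 1 library the ranges were -0.95 to 2.34 (G6pc body), -0.061 to 1.22 (Pcx start), -1.61 to 0.029 (Ppargc1a far upstream end), -0.0022 to 1.62 (Irs1 start), -2.39 to 0.80 (Fbp1 far end), -0.75 to 0.80 (Irs1 far end), -0.57 to 0.011 (Foxo1 upstream flank), -1.47 to 0.86 (Ppargc1a upstream flank), -0.033 to 0.45 (Irs1 upstream flank), -0.35 to 2.88 (Fbp1 downstream flank), -2.77 to 1.89 (Fbp1 promoter), -0.33 to 0.43 (Pygl promoter), -0.66 to 1.77 (Irs1 promoter). The cause was not tested. Read depth is unknown, so no interval from reads was given.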
